A study of Sus scrofa with 4 samples.

Results

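The Polycomb repressive complex genes were read in sorted epidermal cells of the pig as 9 genes chosen by name, EZH1, EZH2, EED, SUZ12, JARID2, CBX2, CBX7, CBX8 and BMI1. All 9 were present among the 29837 named genes of the count table, and all 9 passed the filter on low counts, which left 15980 genes for testing. They are subunits of Polycomb repressive complex 1 (PRC1) and Polycomb repressive complex 2 (PRC2). RNA came from 2 juvenile pigs, 88R and 95R, which carried a fusion of histone H2B and GFP knocked into 1 LGR5 allele. From each pig, live epidermal and hair cells were sorted by flow cytometry into a GFP-hi population, called LGR5-high here, and a GFP-neg population, called LGR5-negative, with 1 poly(A) RNA library of each. Both populations therefore came from animals with the same edited allele, made by nuclear transfer from clonal cell lines or bred from such pigs, and the GFP-lo cells of the same sort were not analysed here. The H2B-GFP protein is diluted at cell division, so that the LGR5-high gate selects bright cells and the LGR5-negative gate holds cells without GFP, whatever their type.

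Polycomb proteins keep genes silent through chromatin. PRC2 methylates a lysine of histone H3 through its catalytic subunit, EZH2 or EZH1, which works only together with EED and SUZ12. Accessory subunits such as JARID2 help PRC2 to reach its target genes. PRC1 is a ubiquitin ligase for histone H2A, built around RING1 or RNF2 and one of the PCGF proteins, of which BMI1 (also called PCGF4) is one. In canonical PRC1, a CBX protein such as CBX2, CBX7 or CBX8 reads the mark that PRC2 has placed. In mouse epidermis, PRC2 is known to hold back late differentiation genes, Merkel cell genes and the CDK inhibitor locus CDKN2A.

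Between the populations, 4 of the 9 genes rose in LGR5-high, 2 fell, and 3 were not called. CBX2, CBX8, BMI1 and EZH2 rose, while JARID2 and EED fell, in both pigs. The changes were moderate, from a fold of 0.667 for JARID2 to 2.73 for CBX2, with every other member between these values. A gene was called where edgeR's quasi-likelihood test on the raw counts gave a Benjamini-Hochberg adjusted p-value below 0.05 over all 15980 genes, and SE is the standard error of its log2 fold change. By the same rule 44.7% of all tested genes differed, 22.7% upward and 22.0% downward, so differences of this kind were common between the 2 populations. The median log2 fold change was 0.12 for the 9 genes, at 0.25 for pig 88R and -0.02 for pig 95R, and 0.02 for all tested genes. For the 6 called genes the libraries of the 2 populations did not overlap, and for EZH1, SUZ12 and CBX7 they did. Such separation of 2 libraries from 2 also occurred for genes that were not called, among them RBBP4, RING1 and PCGF2. Its share over all tested genes was not counted, so it is a description and adds no support to the calls. With the pig as a block in the fit the members had the same 4 and 2 calls, against 28.5% of all genes upward and 27.2% downward (55.7% in either direction). With library size only in place of edgeR's TMM scaling, 5 members were higher and 1 lower, against 34.2% and 14.6% of all genes (48.8% in either direction), and the median was 0.34 for the members and 0.24 for all genes. Without the LGR5-high library of pig 88R, 1 member was higher and 1 lower, against 14.2% and 14.8% of the genes tested in that fit. The summed level of the 9 genes was 293.1 to 310.1 CPM (the counts of a gene scaled to a common library total, with TMM factors) in LGR5-high and 280.0 to 297.4 CPM in LGR5-negative, so that the sums overlapped.

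**Figure D1:**
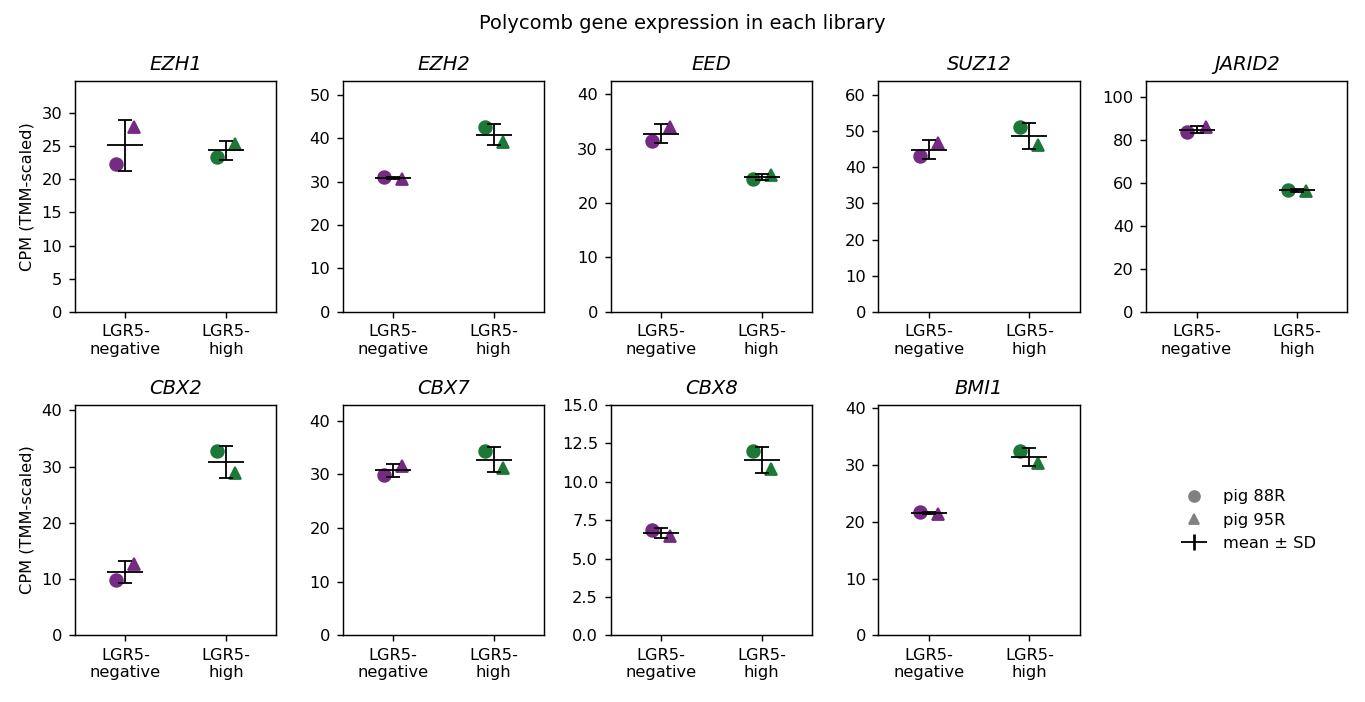
Expression of the 9 Polycomb genes in CPM (vertical axes, each from 0) in the LGR5-negative and LGR5-high libraries of pig 88R (circles) and pig 95R (triangles), with bars for the mean ± SD of the 2 pigs. CBX2, CBX8, BMI1 and EZH2 lie higher in both LGR5-high libraries, JARID2 and EED lie lower, and the populations overlap for EZH1, SUZ12 and CBX7.

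The 4 libraries held between 30696803 and 32463362 counts, and the lowest count of any Polycomb gene was 195, for CBX8, with an exact 95% Poisson interval of 169 to 224 that covers counting error only. LGR5 itself had 4551 and 6224 counts in LGR5-high and 36 and 109 in LGR5-negative, as the sort on its reporter would fix. Of the 4 keratinocyte markers, the basal genes KRT5 and TP63 were not called, and KRT5 had at least 789559 counts in every library. KRT1 and KRT10, keratins of differentiating keratinocytes, were lower in LGR5-high, with log2 fold changes of -3.56 and -3.44, and the 4 markers summed to 29654 to 30890 CPM against 80100 to 92527 CPM. Markers of other cell types also moved with the populations. All 4 tested markers of Langerhans cells and leukocytes were lower in LGR5-high, with a summed level of 6.992 to 8.872 CPM against 100.4 to 142.6 CPM, and the T cell genes CD3D, CD3E and CD3G had at most 4 counts in any library. Of the 7 melanocyte markers 5 were lower, with sums of 62.48 to 62.6 against 85.03 to 261.4 CPM. DCT and MITF were not called, and DCT had log2 fold changes of 0.26 in pig 88R and -1.69 in pig 95R. Of the 5 endothelial markers 4 were lower, with sums of 6.109 to 7.477 against 20.81 to 20.91 CPM. All 4 tested smooth muscle markers were higher, with sums of 291.8 to 403.3 against 14.63 to 15.12 CPM, whereas DES was at 2 counts or fewer. Most of each sum was TAGLN, with 389.4 (pig 88R) and 277.4 CPM (pig 95R) in LGR5-high. ACTA2, MYH11 and CNN1 had only 4.098, 5.344 and 4.7 mean CPM in LGR5-high, against 0.9651, 2.835 and 0.3585 in LGR5-negative. Of the 6 fibroblast markers 1 was higher and 4 were lower, and their sums overlapped. These marker counts stand beside 22.7% of all tested genes higher and 22.0% lower. In sorted bulk RNA, more cells of a type and more RNA per cell cannot be told apart, and the part of differentiating keratinocytes and of these other cells in the Polycomb results was not tested.

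Among the PRC2 core genes, 1 of the 2 catalytic subunits was called. EZH2, the catalytic subunit known for dividing and progenitor cells, had 42.5 CPM (pig 88R) and 39.1 CPM (pig 95R) in LGR5-high, and 31.1 and 30.6 CPM in LGR5-negative, with the pigs in this order throughout. Both LGR5-high values were above both LGR5-negative values. Its means were 40.8 ± 2.40 and 30.8 ± 0.316 CPM (SD, n = 2 pigs), and its log2 fold change was 0.41 (SE 0.0984, edgeR adjusted p = 0.02). The EZH2 call rested on all 4 libraries. Without any 1 of them the log2 fold change lay between 0.34 and 0.47, and the adjusted p-value from edgeR between 0.0558 and 0.127.
EZH1, the catalytic subunit that also serves cells that do not divide, had 23.4 and 25.4 CPM in LGR5-high and 22.4 and 27.9 CPM in LGR5-negative. The LGR5-negative libraries were on either side of the LGR5-high libraries. Its log2 fold change was -0.04 (SE 0.143, edgeR adjusted p = 0.818), at 0.06 for pig 88R and -0.14 for pig 95R. Scaled by library size alone it was 0.18, so no direction can be given for EZH1.
The ratio of EZH2 to EZH1 counts within a library does not depend on scaling between libraries. The ratio was 1.82 and 1.54 in LGR5-high, and 1.39 and 1.10 in LGR5-negative. On the log2 scale the population means were 0.74 ± 0.17 and 0.30 ± 0.239 (SD, n = 2). LGR5-high was above LGR5-negative by 0.39 for pig 88R and 0.49 for pig 95R, and by 0.27 to 0.61 with 1 library left out. The ratio is given as a description without a test. An exact permutation test cannot go below p = 0.333 with 2 libraries against 2.

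SUZ12, the scaffold on which PRC2 is assembled, had 51.1 and 46.2 CPM in LGR5-high and 43.0 and 46.8 CPM in LGR5-negative. The populations overlapped, and its log2 fold change of 0.12 (SE 0.102) was not called (adjusted p = 0.389 from edgeR). The call depended on the scaling: with library size only the log2 fold change of SUZ12 was 0.34 (adjusted p = 0.0414 from edgeR).
EED, which binds the methyl mark and activates the enzyme, went the other way from EZH2. It had 24.5 and 25.2 CPM in LGR5-high against 31.5 and 34.0 CPM in LGR5-negative, with both LGR5-high libraries below both LGR5-negative libraries. The log2 fold change of EED was -0.40 (SE 0.104, edgeR adjusted p = 0.0253), with -0.36 and -0.43 in pigs 88R and 95R. EED lost its call with library size only (-0.18, adjusted p = 0.219), with upper quartile scaling (-0.30, adjusted p = 0.0612) and in DESeq2 with the pig as a block (adjusted p = 0.0632). It also lost it without the LGR5-high library of pig 88R (adjusted p = 0.113), without that of pig 95R (adjusted p = 0.1) and without the LGR5-negative library of pig 95R (adjusted p = 0.0737).

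JARID2, the accessory subunit, fell most of the 9 genes. Its libraries had 57.0 and 56.3 CPM in LGR5-high and 83.8 and 86.1 CPM in LGR5-negative. The spread within each population was small against the gap, at 56.7 ± 0.545 and 85.0 ± 1.65 CPM (SD, n = 2). The log2 fold change of JARID2 was -0.58 (SE 0.0779, edgeR adjusted p = 0.00243), with -0.55 and -0.61 in pigs 88R and 95R. It was the 1 member called under all 10 alternatives of scaling, filter, block and test and also with each library left out, at log2 fold changes of -0.61 to -0.57 in the latter.

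CBX2 and CBX8, readers of canonical PRC1, had the largest increases of the 9 genes. CBX2 had 32.8 and 28.8 CPM in LGR5-high and 9.86 and 12.6 CPM in LGR5-negative. The lower LGR5-high library of CBX2 was still over 2 times the higher LGR5-negative library. Its means were 30.8 ± 2.83 and 11.2 ± 1.97 CPM (SD, n = 2), and its log2 fold change was 1.45 (SE 0.163, edgeR adjusted p = 0.00128). By pig it was 1.73 and 1.18, and it lay between 1.28 and 1.63 with 1 library left out, where the call held each time.
CBX8 was measured with the fewest counts, and had 12.0 and 10.8 CPM in LGR5-high and 6.88 and 6.45 CPM in LGR5-negative. The populations did not overlap. Its log2 fold change was 0.78 (SE 0.158, edgeR adjusted p = 0.0109), and it was close in the 2 pigs, with 0.80 and 0.74. Without the LGR5-high library of pig 88R the CBX8 call was lost (0.69, adjusted p = 0.0755 from edgeR).
CBX7 had 34.4 and 31.1 CPM in LGR5-high and 29.9 and 31.5 CPM in LGR5-negative, and its populations overlapped. Its log2 fold change was 0.09 (SE 0.106, edgeR adjusted p = 0.516). Within a library, CBX2 had 0.954 and 0.926 counts for each CBX7 count in LGR5-high, and 0.330 and 0.401 in LGR5-negative. The difference of the CBX2 to CBX7 ratio was 1.37 on the log2 scale, with 1.53 and 1.21 in pigs 88R and 95R, and that of CBX8 to CBX7 was 0.68, with 0.60 and 0.76.
In the RefSeq annotation of Sscrofa11.1, CBX8 and CBX2 are direct neighbours on chromosome 12, and both were higher in LGR5-high.

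BMI1, the PCGF partner of the RING ligases that is known for stem cell maintenance, had 32.4 and 30.2 CPM in LGR5-high and 21.6 and 21.4 CPM in LGR5-negative. The 2 LGR5-negative libraries were nearly equal and lay below both LGR5-high libraries. Its log2 fold change was 0.54 (SE 0.105, edgeR adjusted p = 0.00934), at 0.58 for pig 88R and 0.50 for pig 95R. Without the LGR5-high library of pig 88R the BMI1 call was lost (0.48, adjusted p = 0.0673 from edgeR).

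**Figure D2:**
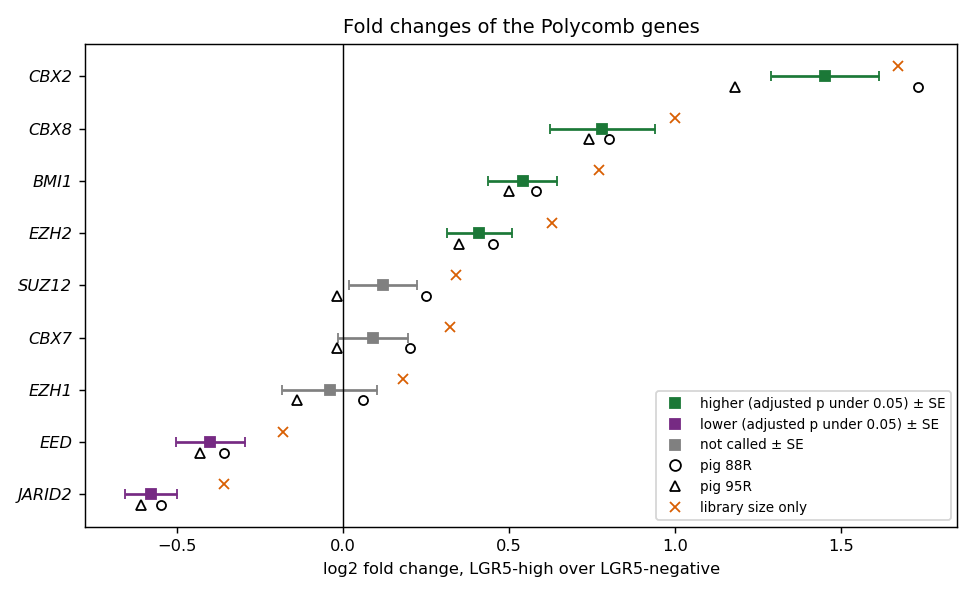
Log2 fold change of LGR5-high over LGR5-negative (horizontal axis) for each Polycomb gene, with squares for edgeR's estimate ± SE, open symbols for each pig and crosses for scaling by library size alone. The order runs from JARID2 at -0.58 to CBX2 at 1.45, and scaling by library size alone moves each gene up by about the same amount.

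The members were also set among their paralogs, in a comparison chosen after the values had been seen. The counts of a gene were given as a share of the counts of its family in the same library, which no scaling between libraries can move. Of the counts of EZH1 and EZH2, EZH2 held 64.5% and 60.6% in LGR5-high, and 58.1% and 52.3% in LGR5-negative. The exact (Clopper-Pearson) 95% intervals were 62.5% to 66.5% and 58.5% to 62.7% in LGR5-high, and 55.6% to 60.6% and 50.0% to 54.7% in LGR5-negative, for counting error only. The shares did not overlap between the populations, though the intervals of the lower LGR5-high and the higher LGR5-negative library did. Nearly every share in the PCGF, RING and PHC families also did not overlap, even that of PCGF2, with means of 24.7% and 23.7%. The lack of overlap is therefore not particular to EZH2. The mean share of EZH2 was 62.6% ± 2.76 in LGR5-high and 55.2% ± 4.09 in LGR5-negative (SD, n = 2). BMI1 held 13.7% ± 0.415 of the counts of the 6 PCGF genes in LGR5-high and 10.8% ± 0.153 in LGR5-negative (SD, n = 2). In the same family PCGF3 went from 22.5% to 33.4%, and PCGF5 and PCGF6 went from 19.4% and 20.4% to 12.9% and 12.0%. All 3 are partners of variant PRC1. RNF2 held 33.3% ± 1.83 of the counts of the 2 RING genes in LGR5-high and 17.8% ± 1.89 in LGR5-negative (SD, n = 2). Shares of a family must sum to the whole, so 1 gene's gain is another's loss, and read counts of different genes also depend on their lengths.

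**Figure D3:**
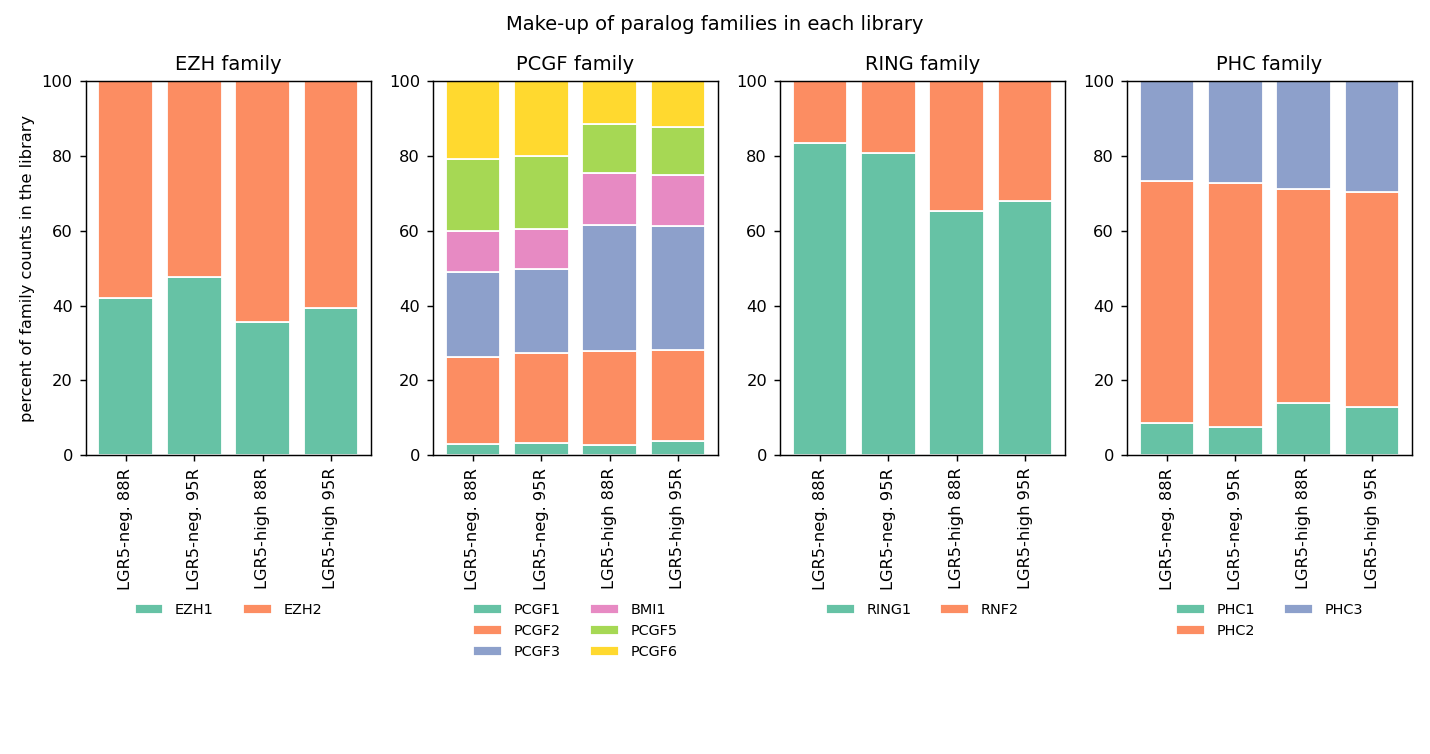
Share of each gene in the counts of its paralog family (vertical axis, percent) for the EZH, PCGF, RING and PHC families in each of the 4 libraries. The EZH2 share is 64.5% and 60.6% in LGR5-high against 58.1% and 52.3% in LGR5-negative, and the RNF2 share is 33.3% on average against 17.8%.

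The remaining subunits came from lists of the complexes, read in the same test. Of 7 other PRC2 subunits tested, 1 was higher and 1 was lower, against 22.7% and 22.0% of all tested genes. Their median log2 fold change was 0.04. PHF1, a PRC2 cofactor that reads histone methylation, had 29.8 mean CPM in LGR5-high and 18.6 in LGR5-negative, a log2 fold change of 0.68 (SE 0.114, edgeR adjusted p = 0.00569). EPOP, a PRC2 cofactor that also binds the Elongin complex, had 12.4 mean CPM in LGR5-high and 33.2 in LGR5-negative. At a log2 fold change of -1.41 (SE 0.124, edgeR adjusted p = 5.54e-04) EPOP fell further than any of the 9 Polycomb genes. RBBP4, RBBP7, AEBP2, MTF2 and PHF19 were not called, with log2 fold changes between -0.21 and 0.21.

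Of 9 other canonical PRC1 subunits, 4 were higher and 1 was lower, against 22.7% and 22.0% of all tested genes. Their median log2 fold change was 0.45. CBX6 and the ligase RNF2 rose most, with log2 fold changes of 1.45 (SE 0.171, edgeR adjusted p = 0.00153) and 1.07 (SE 0.14, edgeR adjusted p = 0.00223). SCMH1 and PHC1, which polymerise within PRC1 through their SAM domains, had log2 fold changes of 0.63 and 0.60. The SCMH1 call was lost without the LGR5-high library of pig 95R (edgeR adjusted p = 0.069). The PHC1 call was lost without either LGR5-high library or the LGR5-negative library of pig 95R (edgeR adjusted p = 0.0568 to 0.0997). PHC2 was the 1 lower gene, with a log2 fold change of -0.34. The PHC2 call was lost with upper quartile scaling, with library size only, and without the same 3 libraries as that of PHC1 (edgeR adjusted p = 0.0692 to 0.343). With library size only, 6 of these 9 genes were higher and 0 lower in edgeR, against 34.2% and 14.6% of all tested genes. At an unadjusted p-value under 0.05, 0 were lower as well. Leaving out either LGR5-high library or the LGR5-negative library of pig 95R lowered the number of calls in this list, and over all genes as well.

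Variant PRC1, which forms around other PCGF proteins and needs no CBX reader, had calls in both directions. Of 16 subunits, 3 were higher and 7 lower, against 22.7% and 22.0% of all tested genes, with a median log2 fold change of -0.10. By pig, this median turned from 0.09 (88R) to -0.28 (95R). AUTS2 and BCOR fell most, with log2 fold changes of -1.07 and -0.90. PCGF3 and DCAF7 rose most, with 0.78 and 0.52, and the DCAF7 call was lost without the LGR5-high library of pig 88R (edgeR adjusted p = 0.123) or the LGR5-negative library of pig 95R (edgeR adjusted p = 0.0993). The direction of this list depended on the scaling, since with library size only its median was 0.13. Under that scaling 5 genes were higher and 3 lower, against 34.2% and 14.6% of all tested genes. Leaving out any single library, of either population, lowered the number of calls in both directions, in this list and over all genes.

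Enzymes that remove Polycomb marks, listed here together with ASXL partners of BAP1 that are not enzymes themselves, were lower or not called. Of 7 tested, 5 were lower and 0 higher in edgeR, against 22.0% and 22.7% of all tested genes. None reached an unadjusted p-value under 0.05 in the higher direction. The histone H3 demethylases KDM6B and KDM6A had log2 fold changes of -0.80 (SE 0.105, edgeR adjusted p = 0.00231) and -0.46 (SE 0.0924, edgeR adjusted p = 0.0108). MYSM1, a deubiquitinase of histone H2A, had -0.64, and ASXL1 and ASXL2, partners of the deubiquitinase BAP1, had -0.47 and -0.36. BAP1 itself had -0.09 and was not called. The median of the list was -0.46, and it was -0.23 with library size only, where the median of all tested genes was 0.24. Under that scaling 2 genes, KDM6B and MYSM1, were lower, against 14.6% of all tested genes. Without the LGR5-high library of pig 95R, KDM6A, ASXL1 and ASXL2 lost their calls, with log2 fold changes of -0.42, -0.41 and -0.23. In that fit a gene of this list was called higher, and fewer genes were called over all genes as well. The ASXL2 call was also lost with upper quartile scaling and without either LGR5-negative library (edgeR adjusted p = 0.0756 to 0.0926). ASXL3, with 46 and 5 counts in LGR5-high and 0 in both LGR5-negative libraries, did not pass the filter. The Trithorax and MLL complexes oppose Polycomb by methylating another lysine of histone H3. Among 13 of their subunits, 0 were higher and 4 lower in edgeR, against 22.7% and 22.0% of all tested genes. The 4 lower subunits were KMT2D, KMT2C, NCOA6 and PAXIP1, with log2 fold changes of -0.56, -0.54, -0.48 and -0.46. At an unadjusted p-value under 0.05, 0 of the 13 were higher. With library size only 4 were higher and 2 lower, against 34.2% and 14.6% of all tested genes. The PAXIP1 call was lost without the LGR5-high library of pig 95R (edgeR adjusted p = 0.0634), and without the LGR5-negative library of pig 95R 1 gene was higher.

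**Figure D4:**
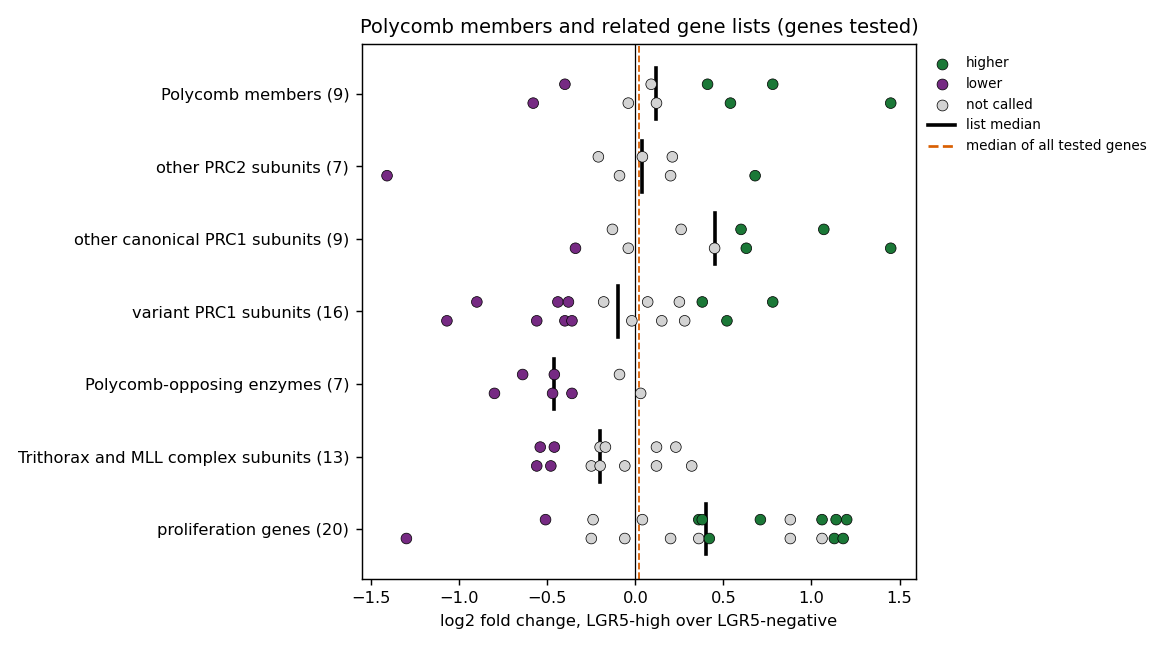
Log2 fold change of LGR5-high over LGR5-negative (horizontal axis) for every tested gene of the Polycomb members and 6 related lists, with the number of tested genes in brackets, a bar at each list's median and a dashed line at the median of all tested genes. The medians run from -0.46 for the opposing enzymes to 0.45 for the other canonical PRC1 subunits, and the called genes of the members and of the PRC1 lists lie on both sides of 0.

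Genes listed as targets of Polycomb were read beside the members, and whether Polycomb silences them in these cells was not tested. Of the CDK inhibitor genes, CDKN1A was lower in LGR5-high, with a log2 fold change of -1.19, and CDKN1C was higher, with 1.51. CDKN2B had -0.11 and was not called, and CDKN2A was not analysed here. Of 10 Merkel cell genes 4 passed the filter, of which 2 were higher and 0 lower, against 22.7% and 22.0% of all tested genes. The higher genes were KRT8, with 81.7 mean CPM in LGR5-high and 1.56 in LGR5-negative, and the ion channel gene PIEZO2, with 9.26 and 0.539. The genes that define Merkel cells were near 0, with at most 21 counts of ATOH1, 5 of SOX2, 7 of ISL1 and 12 of KRT20 in any library. Of 8 late differentiation genes tested, 2 were higher and 4 lower, against 22.7% and 22.0% of all tested genes. TGM3 and KRTDAP fell most, with log2 fold changes of -3.64 and -3.22, whereas CDSN and ASPRV1 had log2 fold changes of 4.20 and 1.52. CDSN had 694 and 6761 counts in LGR5-high and 146 and 213 in LGR5-negative, and limma-voom did not call it (adjusted p = 0.147). Its log2 fold change was 1.73 without the LGR5-high library of pig 95R, and its call was lost without the LGR5-negative library of pig 88R (edgeR adjusted p = 0.0591).

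EZH2 is known to rise with cell division, and genes of proliferation moved with the populations. Of 20 such genes 9 were higher and 2 lower in LGR5-high, against 22.7% and 22.0% of all tested genes, with a median log2 fold change of 0.40 and summed levels of 990.8 to 1184 CPM against 808.2 to 945.5 CPM. With library size only 15 were higher and 1 lower, against 34.2% and 14.6% of all tested genes. Blocking on the pig gave 13 higher and 3 lower, where the shares over every gene in the test were 28.5% and 27.2%. The upward share of all genes therefore also rose in both fits. AURKB and CCNB1 rose most, with log2 fold changes of 1.20 and 1.18, and RRM2 and E2F2 fell, with -1.30 and -0.51. The call of AURKB was lost without the LGR5-high library of pig 88R (adjusted p = 0.0523), and that of CCNB1 without either LGR5-high library or the LGR5-negative library of pig 95R (adjusted p = 0.0509 to 0.172). The E2F2 call was lost with upper quartile scaling, with library size only, and without either LGR5-high library or the LGR5-negative library of pig 88R (edgeR adjusted p = 0.0613 to 0.208). The part of proliferation in the EZH2 result was not tested.

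The genes whose pattern over the 4 libraries was nearest to that of EZH2, by Euclidean distance between log2 CPM values centred on each gene's mean, were CAB39, ZNF689 and EWSR1. Their distances were 0.00439, 0.0244 and 0.0283 among 13663 genes with a mean of at least 1 CPM. For EZH1 they were EMC1, RRAGA and SRRD, at 0.0218, 0.0362 and 0.0373. With 4 libraries such a likeness is a description only.

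**Figure D5:**
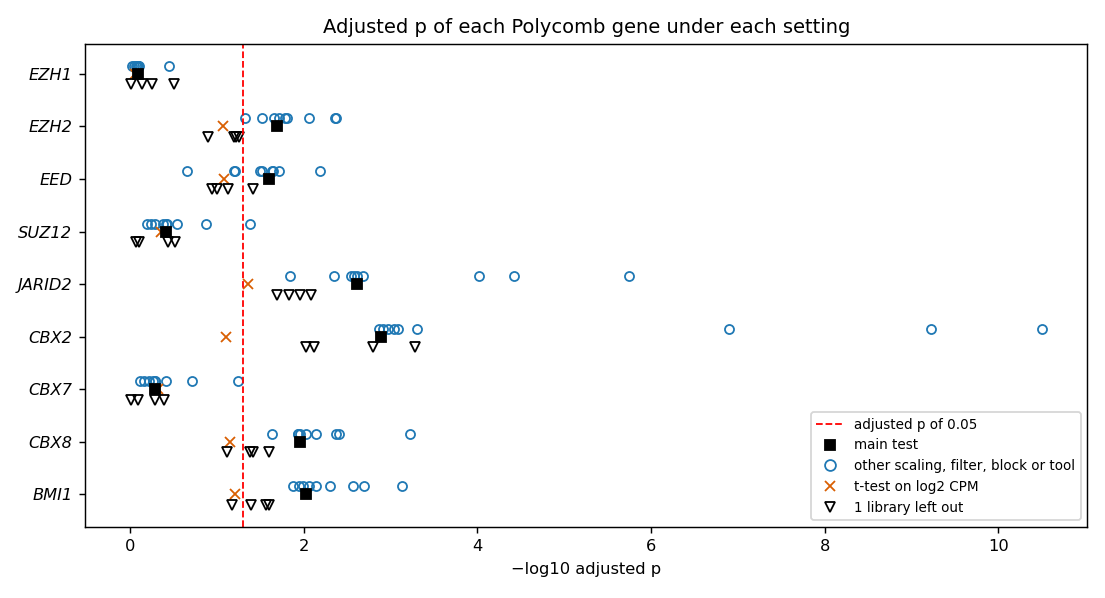
Adjusted p-value of each Polycomb gene on a −log10 scale (horizontal axis) in the main test (squares), in 9 alternatives of scaling, filter, block or tool (circles), in the kind of test named in the study's methods, on log2 CPM (crosses) and with 1 library left out (triangles), with a dashed line at 0.05. JARID2 lies past the line under every setting shown, and EZH2 falls short of it whenever 1 library is left out.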

How the data were processed

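RNA sequencing was analysed for the LGR5-high and LGR5-negative populations of 2 pigs, with 1 library each. The table deposited by the authors holds raw, unnormalized counts under gene symbols. The submitters' processing notes name Trimmomatic 0.36, STAR 2.5.2b, featureCounts and Subread 1.5.2. The genome build, annotation and strand setting are not given in the sources used here, so reads shared between overlapping genes cannot be assigned. In the RefSeq annotation of Sscrofa11.1, used for names and gene order only, EZH1, EED and SUZ12 each overlap 1 other gene. All 29837 named genes matched a RefSeq symbol. Totals lay between 30696803 and 32463362 counts. The entry without a name, with 0.36% to 0.626% of the counts per library, was left out.

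Testing used edgeR 4.0.16 under R 4.3.3. The filterByExpr function (minimum count 10, minimum total 15) removed low genes, TMM set the scaling, and the quasi-likelihood model had the population as its only term, 2-sided, with Benjamini-Hochberg adjustment over 15980 genes. The standard error is the log2 fold change divided by the root of the F statistic. Per-pig fold changes were taken from log2 CPM (prior count 2). CPM values are mean ± SD over the pigs. Ratios and shares were computed from raw counts. The 2 libraries of a pig come from 1 animal and are paired, and around the population means they correlated at 0.37 over the genes. With 2 libraries in each population, p-values rest on the spread between libraries of these 2 animals, which includes sorting and library preparation. In edgeR the variance of a gene is also drawn towards that of other genes. The main fit leaves out the pairing.

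The alternatives were scaling by upper quartile, by DESeq2 size factors or by library size only, all genes with at least 1 count or at least 10 counts in every library, the pig as a replicate block, DESeq2 1.42.0 with and without the block, voom of limma 3.58.1, the test named in the study's methods (a t-test, here on log2 CPM with a pseudocount of 1), and each library left out in turn. The lone library of a population was then assumed to vary like the others. The fits were tested on simulated data. Plots were drawn with matplotlib 3.10.9.

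The 9 members and the gene lists were chosen with earlier results of these data known. The named genes are the members, the subunits of PRC2 and canonical PRC1, the CDK inhibitors, LGR5, up to 2 genes with the largest increase and 2 with the largest decrease among the called genes of each other list, and the 3 nearest patterns to EZH1 and EZH2. KDM6A, ASXL1, ASXL2, BAP1, ASXL3, NCOA6 and PAXIP1, PCGF5 and PCGF6, and the marker genes named beside their lists were named after their values had been seen. One canonical PRC1 gene is not reported here. LCOR, CDKN2A, FLG, LCE1A and KRT14 were not analysed here. No transcript lengths were used, so ratios and shares between genes compare libraries and do not rank the genes by level.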

Additional observations from a re-analysis of the deposited data

How the results depend on the processing

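Limits. Each population has 2 libraries, so p-values rest on the spread between libraries of 2 pigs. Leaving out any library leaves a population with 1. Counting error was small at this depth, whereas a call near the threshold depended on single libraries. The cause of the changes below was not tested. Scaling by library size only raised the median log2 fold change of all genes from 0.02 to 0.24, and upper quartile scaling raised it to 0.11. JARID2 kept its direction and its call under every alternative, and CBX2 under all but the t-test.

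With library size only the log2 fold change was 0.18 for EZH1, -0.18 for EED, 0.34 for SUZ12, 0.13 for AEBP2, 0.01 for PHF19, 0.09 for RING1, 0.18 for PHC3, 0.12 for CDKN2B, 0.17 for EMC1, 0.16 for RRAGA and 0.18 for SRRD. With upper quartile scaling it was 0.05 for EZH1, -0.30 for EED, 0.00 for AEBP2, 0.05 for PHC3, 0.05 for EMC1, 0.03 for RRAGA and 0.05 for SRRD. In the t-test on log2 CPM it was 0.39 for EZH2, -0.38 for EED, 1.38 for CBX2, 0.69 for CBX8 and 0.52 for BMI1, none of them called at the adjusted threshold.

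The pig as a replicate block changed no member's call in edgeR. With the block in DESeq2 the log2 fold change of EED was -0.40 and not called, which left 1 member lower. The block in edgeR gave 1 Trithorax and MLL gene higher, against 0 without it, and 6 other canonical PRC1 genes higher, against 4. Over all tested genes the block gave 28.5% higher, against 22.7% without it.

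With library size only, 5473 of all genes were higher and 2326 lower, against 3632 and 3508 with TMM. Under it 1 member was lower, 4 other PRC2 genes were higher, 0 other canonical PRC1 genes were lower, 5 variant PRC1 genes were higher and 3 lower, 2 opposing enzymes were lower, and 4 Trithorax and MLL genes were higher and 2 lower. With upper quartile scaling 1 member was lower, 2 other PRC2 genes were higher and 0 other canonical PRC1 genes were lower (1 at an unadjusted p-value under 0.05). Over all genes that scaling called 4292 higher and 2929 lower, against 3632 and 3508 with TMM. With all genes of at least 1 count 1 opposing enzyme was higher. The t-test called 544 of all genes higher and 502 lower. It called 0 members higher and 1 lower, 0 and 0 other PRC2 genes, 0 and 0 other canonical PRC1 genes, 1 and 1 variant PRC1 genes, 1 opposing enzyme lower and 0 Trithorax and MLL genes lower. At an unadjusted p-value under 0.05 it had 4 members higher, 2 and 1 other PRC2 genes, 5 and 2 other canonical PRC1 genes, and 5 Trithorax and MLL genes lower.

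With each library left out in turn, the log2 fold change ranged from -0.20 to 0.11 for EZH1, 0.34 to 0.47 for EZH2, -0.46 to -0.35 for EED, 0.69 to 0.85 for CBX8, 0.48 to 0.60 for BMI1, -0.13 to 0.03 for PHC3, -0.30 to 0.06 for CDKN2B, -0.22 to 0.12 for EMC1, -0.20 to 0.07 for RRAGA and -0.23 to 0.14 for SRRD. The counts ranged from 2279 to 3169 for all genes higher and 2139 to 3004 lower, 1 to 3 members higher and 1 to 2 lower, 2 to 4 other canonical PRC1 genes higher and 0 to 1 lower, 1 to 2 variant PRC1 genes higher and 3 to 6 lower, 0 to 1 opposing enzymes higher and 2 to 5 lower, and 0 to 1 Trithorax and MLL genes higher. Of 699 fold changes of named genes outside the members under an alternative, 594 kept their direction and their side of the threshold.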
